A study of Mus musculus with 18 samples.

Results

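The genes described here are those of fatty acid oxidation and ketone body metabolism, measured by RNA sequencing in mouse colon and spinal dorsal horn. They were taken by symbol from a list of 35 genes, with no threshold on any measured value. Of these 35, 33 were found, each in both count tables, against 14987 genes in the colon table and 15193 in that of the dorsal horn. Eci2 and Acaa1b were not analysed here. All mice were labelled wild type, and each tissue had 3 groups of 3 libraries, 18 libraries in all. The sham group had a sham procedure and IgG, the cancer group had bone cancer and IgG, and the nivolumab group had bone cancer and nivolumab, an antibody against the T cell checkpoint receptor PD-1. The labels state no tumour line, strain, age, sex or time, and no group received nivolumab without cancer. Nothing states that the 3 libraries of a group came from separate animals, so each p-value speaks of the scatter among these libraries alone, and that scatter may be technical.

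Long-chain fatty acids are activated to acyl-CoA by synthetases such as Acsl1 and Acsl5, and enter mitochondria through the carnitine shuttle. Cpt1 enzymes make acylcarnitine at the outer membrane, Slc25a20 carries it across the inner membrane and Cpt2 turns it back into acyl-CoA. Each turn of beta-oxidation then takes a dehydrogenase matched to chain length, a hydratase, a second dehydrogenase and a thiolase, with electrons passed to the respiratory chain by the electron transfer flavoprotein. Peroxisomes run a parallel route for very long and branched chains. The acetyl-CoA can be made into ketone bodies, which brain and other tissues burn. In the nervous system, fatty acid oxidation is known mainly from astrocytes, while colonocytes are known to burn butyrate, a short-chain fatty acid from gut bacteria.

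Total counts ran from 20896854 to 30803957 per colon library and from 21855085 to 29071908 per dorsal horn library. All 33 genes passed the expression filter in both tissues. Library counts of a gene fell as low as 21 for Cpt1b and 25 for Ppara in the dorsal horn, and as low as 74 for Ppara in the colon. Colon libraries carried colonocyte and goblet cell markers at a mean log2 CPM (counts scaled to library size with TMM factors) of at least 8.88 and 8.44. Dorsal horn libraries carried neuronal, astrocyte and oligodendrocyte markers at 8.26, 8.02 and 8.62 or more. Dorsal root ganglion markers, which belong to sensory neurons outside the cord, were uneven: the mean log2 CPM of 14 markers was -0.72, -0.58 and 4.41 in the sham libraries, -0.41, -0.58 and 4.57 in the cancer libraries and 6.08, 5.58 and 6.32 in the nivolumab libraries. Replicate 3 of sham and replicate 3 of cancer therefore stood apart from the others of their groups.

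In sham mice, most genes of fatty acid oxidation stood higher in colon than in dorsal horn. With edgeR's quasi-likelihood test on both tissues together, 27 of the 33 genes were higher in colon and 2 were lower, where 38.2% of all 14164 genes tested were higher and 37% were lower. The median log2 difference was 1.48 over the 33 genes and 0.04 over all genes. Tissue and count table cannot be told apart here, and in bulk tissue fewer cells of a type and less RNA per cell cannot be told apart either.

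The difference was widest for the short-chain dehydrogenase Acads, which oxidises butyryl-CoA. Its sham level was 257 ± 72.6 CPM in colon and 11.8 ± 0.98 in dorsal horn (SD, n = 3), a ratio of 21.8 (adjusted p = 1.7e-09). The carnitine-acylcarnitine carrier Slc25a20 followed with a ratio of 12.8 (189 ± 49.1 against 14.8 ± 0.643 CPM) and Hadh, the medium- and short-chain hydroxyacyl-CoA dehydrogenase, with 6.27 (295 ± 65.6 against 47.1 ± 1.92 CPM). The ketone enzymes Bdh1, which interconverts acetoacetate and hydroxybutyrate, and Acat1, the mitochondrial acetoacetyl-CoA thiolase, were 3.03-fold and 1.74-fold higher in colon. Of 22 mitochondrial genes, 21 were higher in colon. The exception, the thioesterase Acot2, had a log2 difference of -0.71 ± 0.49 (SE) and was not called.

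Peroxisomal beta-oxidation was less one-sided. Ehhadh, the bifunctional enzyme, was 5.86-fold higher in colon (38.2 ± 13.4 against 6.51 ± 1.77 CPM) and the thiolase Acaa1a was 1.45-fold higher (adjusted p = 0.029). The oxidase Acox3 (log2 difference 0.07 ± 0.11) and the bifunctional enzyme Hsd17b4 (-0.24 ± 0.15) were not called, and their sham libraries overlapped between the tissues. No test compared the compartments with each other.

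Both genes that were lower in colon handle acyl-CoA outside the matrix. Cpt1c, the neuronal carnitine palmitoyltransferase of the endoplasmic reticulum, had 8.60 ± 4.61 CPM in colon and 92.3 ± 5.21 in dorsal horn, a log2 difference of -3.43 ± 0.38 (adjusted p = 1.3e-06). Acsl1 had 32.4 ± 8.95 against 71.3 ± 2.02 CPM (log2 difference -1.14 ± 0.17). The other synthetase, Acsl5, went the opposite way, at 190 ± 19.9 CPM in colon and 43.6 ± 4.59 in dorsal horn. Of the regulators, the nuclear receptor Ppara was 5.77-fold higher in colon, while the coactivator Ppargc1a did not pass (log2 difference -0.30 ± 0.22).

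Levels between genes were compared per length, as RPKM (counts scaled to library size and to the length of the principal transcript). In colon sham libraries the highest were Etfb, a subunit of the electron transfer flavoprotein, at 177 ± 23.2 RPKM, Hadh at 165 ± 36.7 and Acads at 137 ± 38.8. In dorsal horn they were Acaa1a at 50.2 ± 10.7, Hadhb, the thiolase subunit of the trifunctional protein, at 49.6 ± 4.85 and Etfb at 46.6 ± 1.43. These 3 dorsal horn levels differed by less than the spread of Acaa1a. Acads held rank 3 of 33 in colon and rank 28 in dorsal horn.

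**Figure D1:**
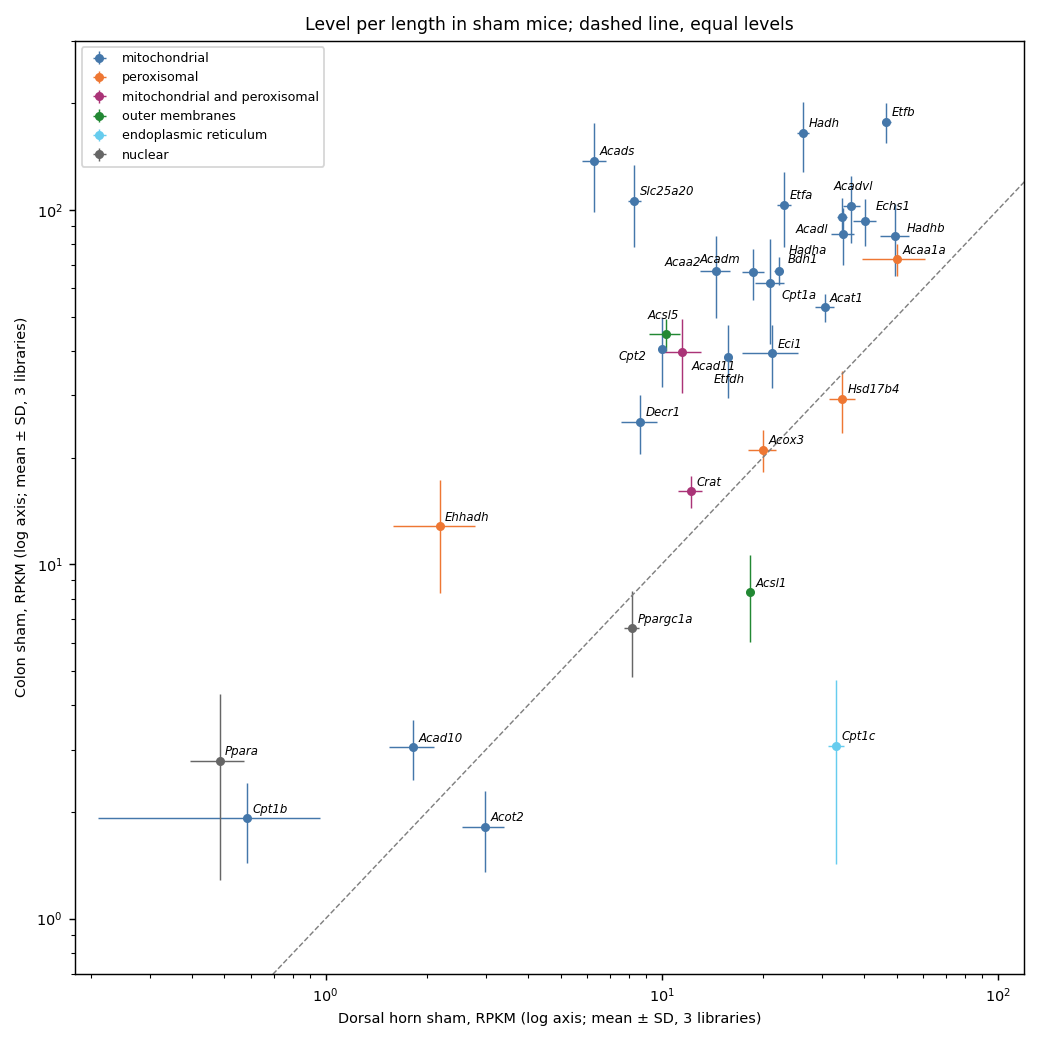
Level per length (RPKM, both axes logarithmic) of the 33 genes in sham libraries, dorsal horn across and colon up, as means with SD bars over 3 libraries and colours by compartment. Acads and Slc25a20 lie farthest above the dashed line of equal levels, and Cpt1c and Acsl1 lie farthest below it. Acot2, Hsd17b4 and Ppargc1a also lie below the line and were not called.

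The 3 forms of Cpt1 showed different patterns over the 18 libraries. Cpt1a, the form of liver and of most tissues, had 339, 179 and 272 CPM in the colon sham libraries, 373, 231 and 262 in cancer and 435, 273 and 308 with nivolumab. The spread within each colon group was as wide as the gaps between groups, and none of its 3 contrasts passed. Cpt1b, the muscle form, had 3.77, 6.51 and 6.24 CPM in sham colon, 3.93, 7.62 and 9.35 in cancer and 6.5, 3.96 and 4.73 with nivolumab. Cpt1c had 7.57, 13.7 and 4.34 CPM, then 8.11, 14.7 and 6.01, then 10.3, 6.35 and 9.79 in the same order. All groups overlapped for both genes in colon. In the dorsal horn Cpt1c had 91.3, 91.1 and 101 CPM in sham, 78.9, 94.6 and 91.3 in cancer and 86.9, 78.4 and 83.7 with nivolumab. Its nivolumab libraries lay below the sham libraries but overlapped the cancer libraries, and no contrast passed (smallest adjusted p = 0.18).

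In the dorsal horn, some of the mitochondrial beta-oxidation genes were higher with nivolumab than in cancer alone. Of the 33 genes, 10 were higher and 1 was lower at an adjusted p under 0.05, against 8.63% of 13609 genes higher and 8.6% lower. The median log2 change was 0.18 over the 33 genes and 0.00 over all genes. With upper-quartile scaling the split was 8 higher and 2 lower. Changes were small in size, with ratios of mean CPM between 1.21 and 1.39 for the genes that were higher. Nivolumab was compared with the same 3 cancer libraries that enter cancer against sham, so the contrasts share libraries.

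Activation and entry came first. Acsl1 (chr8:46471037-46536051, GRCm38) had 74.5, 73.3 and 70.7 CPM in sham, 60.3, 65.1 and 54.3 in cancer and 80.8, 92.4 and 77.3 with nivolumab. The cancer libraries were the lowest and the nivolumab libraries the highest, with no overlap. Its log2 change from cancer to nivolumab was 0.48 ± 0.09 (SE; ratio 1.39, adjusted p = 0.0073). Cpt1a (chr19:3322334-3385733), the rate-limiting step of entry, had 99.8, 82.4 and 96.2 CPM in sham, 79.4, 65.8 and 84.0 in cancer and 101, 101 and 102 with nivolumab. The nivolumab libraries lay together above all cancer libraries, and the log2 change was 0.41 ± 0.10 (adjusted p = 0.022). Acsl5, Cpt2, Slc25a20 and Crat, the carnitine acetyltransferase, had log2 changes from 0.06 to 0.22 and were not called.

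Of the 6 acyl-CoA dehydrogenases, which take the first step of each turn, 3 rose. Acadvl (chr11:70010183-70015411), for very long chains, had 86.4, 77.4 and 79.9 CPM in sham, 69.3, 69.2 and 72.3 in cancer and 90.0, 92.3 and 93.3 with nivolumab. The 3 groups did not overlap, with cancer lowest. Its log2 change was 0.39 ± 0.06 (ratio 1.31, adjusted p = 0.004). Acadm (chr3:153922357-153944632), for medium chains, had 42.3, 38.8 and 36.4 CPM in sham, 35.3, 37.7 and 40.1 in cancer and 47.4, 51.2 and 53.0 with nivolumab. Sham and cancer overlapped and nivolumab stood above both, with a log2 change from cancer of 0.42 ± 0.08 (adjusted p = 0.0089). Acadl, for long chains, averaged 56.3 ± 9.61 CPM in cancer and 75.6 ± 4.85 with nivolumab (log2 change 0.43 ± 0.11, adjusted p = 0.028). Acads (0.22 ± 0.12), Acad10 (0.03 ± 0.17) and Acad11 (0.21 ± 0.11) were not called.

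The later steps of the turn held 3 called genes of 5. Hadhb (chr5:30155248-30184593) had 115, 102 and 94.9 CPM in sham, 93.6, 88.9 and 89.2 in cancer and 109, 111 and 128 with nivolumab. Cancer lay below both other groups, which overlapped, and the log2 change was 0.36 ± 0.08 (adjusted p = 0.021). Hadh (chr3:131233419-131272101) had 46.9, 50.4 and 47.0 CPM in sham, 37.3, 38.8 and 38.0 in cancer and 42.3, 52.8 and 48.5 with nivolumab. Its cancer libraries were again the lowest, and of the nivolumab libraries 1 lay below, 1 within and 1 above the sham range. The log2 change from cancer was 0.33 ± 0.08 (adjusted p = 0.025). Acaa2, the mitochondrial thiolase, averaged 21 ± 3.66 CPM in cancer and 28.6 ± 0.746 with nivolumab (0.45 ± 0.13, adjusted p = 0.038). Hadha, the partner of Hadhb in the trifunctional protein, reached 0.18 ± 0.06 (adjusted p = 0.073), and the hydratase Echs1 was at -0.02 ± 0.09. Decr1, which handles unsaturated chains, had 0.33 ± 0.11 (adjusted p = 0.055) and Eci1 had 0.16 ± 0.13.

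Both subunits of the electron transfer flavoprotein rose. Etfa (chr9:55454508-55512243) had 34.6, 32.1 and 31.8 CPM in sham, 31.9, 37.5 and 36.2 in cancer and 41.2, 42.1 and 44.9 with nivolumab. Etfb (chr7:43444083-43457800) had 43.7, 42.7 and 41.2 CPM in sham, 35.3, 37.5 and 39.9 in cancer and 46.2, 45.8 and 46.6 with nivolumab. For both, every nivolumab library was above every other library. The log2 changes from cancer were 0.28 ± 0.08 for Etfa (adjusted p = 0.038) and 0.30 ± 0.06 for Etfb (adjusted p = 0.015). Etfdh, which passes the electrons to ubiquinone, had 0.17 ± 0.07 (adjusted p = 0.12).

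The regulator Ppargc1a, a coactivator of mitochondrial gene programmes, went the other way. Ppargc1a (chr5:51454250-51567726) had 50.9, 54.0 and 56.6 CPM in sham, 59.4, 63.5 and 63.7 in cancer and 43.2, 46.6 and 43.3 with nivolumab. The groups did not overlap, with cancer highest and nivolumab lowest. Its log2 change from cancer to nivolumab was -0.49 ± 0.07 (ratio 0.71, adjusted p = 0.0029), the smallest adjusted p of the 33 genes. Ppara, the receptor that drives many of these genes in liver, was low, at 0.925 to 2.76 CPM, and was not called (-0.55 ± 0.34).

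**Figure D2:**
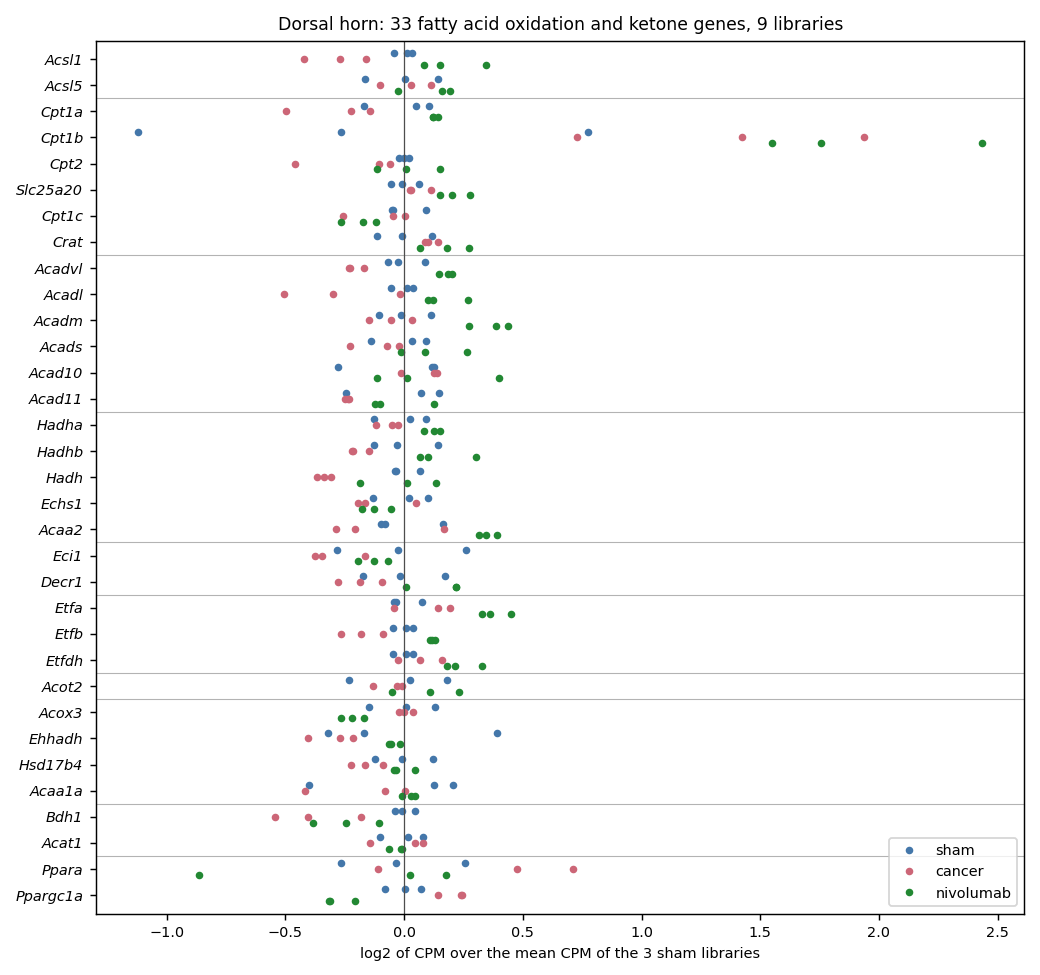
The 33 genes in the 9 dorsal horn libraries, as the log2 of each library's CPM over the mean of the 3 sham libraries, grouped by role from top to bottom. For Acadm, Etfa and Acaa2 the 3 nivolumab points lie right of all others, and for Ppargc1a they lie left of all others.

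Peroxisomal and ketone genes of the list were not called in this contrast by edgeR. Of the 4 peroxisomal genes, 1 had an unadjusted p under 0.05: Acox3, with 81.6, 73.3 and 88.9 CPM in sham, 80.0, 81.3 and 83.3 in cancer and 69.9, 67.7 and 72.3 with nivolumab. Its nivolumab libraries were the lowest (log2 change -0.22 ± 0.07, adjusted p = 0.065). DESeq2 called it lower, and so did edgeR with the replicate number as a block (-0.22 ± 0.06, adjusted p = 0.038). Acaa1a had 98.4, 104 and 68.3 CPM in sham, 85.3, 90.6 and 67.6 in cancer and 93.1, 92.2 and 89.7 with nivolumab. Replicate 3 of sham and of cancer were its lowest, and its change was 0.18 ± 0.16. Ehhadh (0.25 ± 0.19) and Hsd17b4 (0.15 ± 0.07) leaned up without passing. Bdh1 (0.13 ± 0.10) and Acat1 (-0.02 ± 0.07) were not called, and neither had an unadjusted p under 0.05 or a DESeq2 call.

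**Figure D3:**
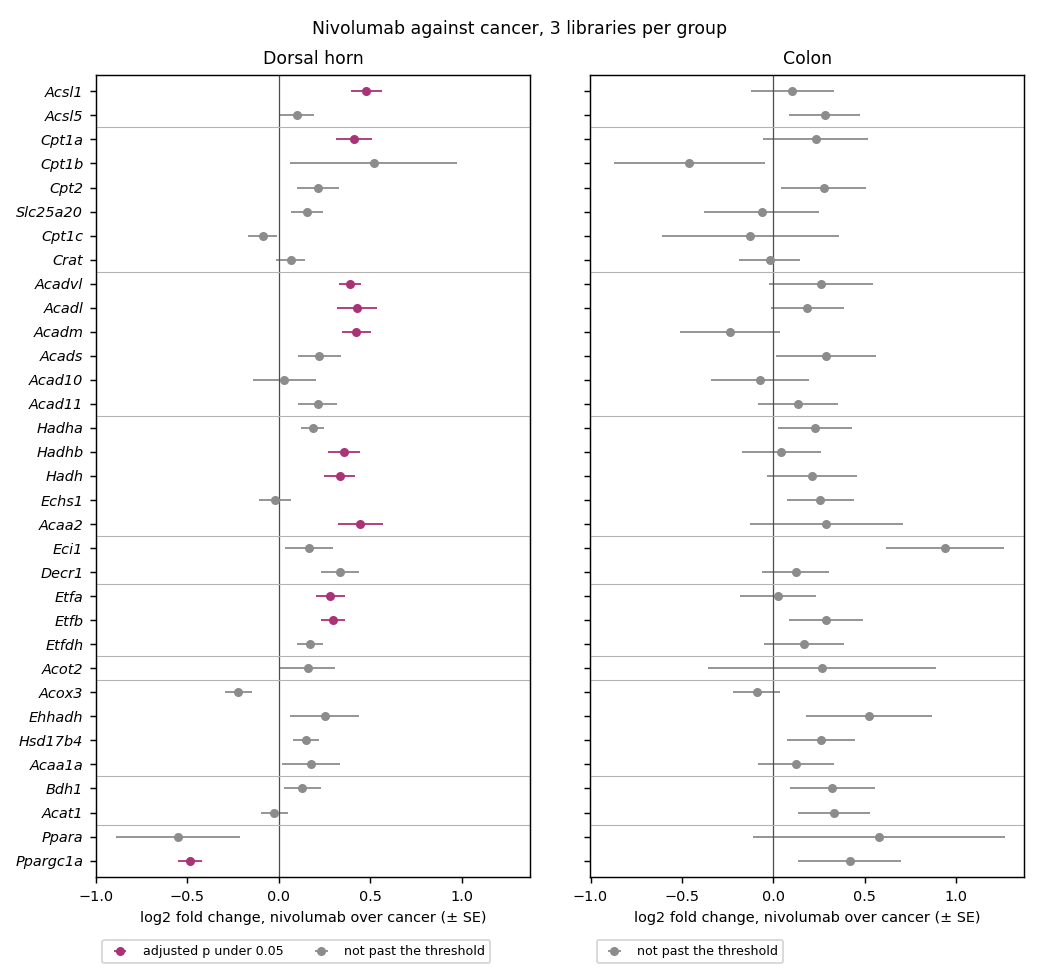
The log2 fold change from cancer to nivolumab with its SE, for the 33 genes in dorsal horn (left) and colon (right), 3 libraries per group, on a shared axis. In the dorsal horn 11 genes pass the threshold, 10 to the right and Ppargc1a to the left. In the colon none passes.

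The calls differed in how far they held under 18 alternatives. Acadm, Acadvl and Ppargc1a passed in all 18, Acsl1 in 17, and the other 7 in 7 (Acaa2) to 15 (Hadhb). Without nivolumab replicate 3, 4 of the 33 genes were called, and without replicate 1 or replicate 2, 6. Without cancer replicate 1, 7 were called, and without cancer replicate 2, 6. Without replicate 3 of sham and of cancer together 11 were called. For these fits the shares of all genes called are not given here. Exons of Acadvl share 42.9% of their bases with Dvl2 on the opposite strand, and those of Etfb share 53.0% with Gm45233 on the same strand. The strand setting of the counts is not given, so such reads cannot be told apart.

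Markers of other cells moved with this contrast. Of 12 skeletal muscle markers, 9 were in the table, among them Pvalb, which neurons also express. Their summed level was 102 to 252 CPM in sham, 94.7 to 361 in cancer and 188 to 969 with nivolumab, with Myh4 at 0 in 1 cancer library. The 14 ganglion markers summed to 151 to 708 CPM in sham, 129 to 772 in cancer and 1349 to 2194 with nivolumab. Between 3 and 6 of them, always including Mrgprd and Mrgprx1, were at 0 in the first and second sham and cancer libraries, and none with nivolumab. Of 10 Schwann cell markers, 9 were in the table. They summed to 28302 to 33463 CPM in sham, 16262 to 21808 in cancer and 25297 to 28325 with nivolumab. This sum is set mostly by the most abundant markers of the list, which are not named here. The oligodendrocyte markers in the table summed to 21219 to 27569 CPM in sham, 10629 to 15994 in cancer and 21456 to 23878 with nivolumab. The mean log2 CPM of the Schwann cell markers was 4.74 to 5.91 in sham, 4.16 to 5.05 in cancer and 6.33 to 6.58 with nivolumab. Of 10 oligodendrocyte markers, 9 were in the table, at 9.58 to 10.2 in sham, 8.62 to 9.52 in cancer and 9.83 to 9.99 with nivolumab. The 12 astrocyte markers were at 8.29 to 8.47, 8.10 to 8.28 and 8.02 to 8.13. The 10 neuronal markers were at 8.26 to 8.38 in sham, 8.43 to 8.48 in cancer and 8.29 to 8.31 with nivolumab, and the 9 microglial markers at 3.96 to 4.77, 3.78 to 4.39 and 4.43 to 4.67. The 10 adipocyte markers were at -1.39 to -0.31, -1.37 to -0.81 and -1.35 to 1.39, with the highest value in nivolumab replicate 3. Their summed level went the other way, at 130 to 296 CPM in sham, 53.3 to 339 in cancer and 28.8 to 69.4 with nivolumab. With the ganglion score (mean log2 CPM) as a covariate 11 of the 33 genes were called, 9 higher and 2 lower. These included the peroxisomal Acaa1a, Acox3 and Hsd17b4 but not Acaa2, Acadl, Cpt1a, Etfa or Etfb. The score was 5.58 or more in every nivolumab library and 4.57 or less in every sham and cancer library. Ganglion content and nivolumab therefore cannot be told apart by this fit. With the skeletal muscle score as a covariate, an alternative chosen after seeing the data, 3 were called: Acadm, Acadvl and Ppargc1a. The shares of all genes called in the covariate fits are not given here. A change in count therefore cannot be read as particular to the 33 genes. The part of Schwann cell, oligodendrocyte, astrocyte, neuronal, microglial and adipocyte markers in the result was not tested.

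Promoter sequences are shown for the 3 genes that rose and also hold the core element AGGTCA, which nuclear receptors such as the PPARs bind, so that these genes were picked for both. RefSeq windows (GRCm38.p6) matched 27 of the 33 genes, and the 250 bases before the start site were searched on both strands. The core element was found in 5 of these 27 genes (Acadm, Acadvl, Cpt1a, Cpt1c and Echs1), or 18.5%, which is near the 15.8% of 27025 genes. The longer AAGGTCA, which contains the core element, was in Acadm alone of the 27 and in 4.70% of all genes. A match is a description of these letters and not a binding site. The windows are chr3:153944644-153944893 (minus strand) for Acadm, chr11:70015429-70015678 (minus strand) for Acadvl and chr19:3323051-3323300 (plus strand) for Cpt1a, printed 5′ to 3′ along the gene with the core element, on either strand, in capitals.
Acadm: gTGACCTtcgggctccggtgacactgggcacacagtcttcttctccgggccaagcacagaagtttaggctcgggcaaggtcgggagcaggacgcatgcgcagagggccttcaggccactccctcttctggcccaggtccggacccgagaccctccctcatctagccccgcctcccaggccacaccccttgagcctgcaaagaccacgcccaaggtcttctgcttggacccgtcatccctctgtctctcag
Acadvl: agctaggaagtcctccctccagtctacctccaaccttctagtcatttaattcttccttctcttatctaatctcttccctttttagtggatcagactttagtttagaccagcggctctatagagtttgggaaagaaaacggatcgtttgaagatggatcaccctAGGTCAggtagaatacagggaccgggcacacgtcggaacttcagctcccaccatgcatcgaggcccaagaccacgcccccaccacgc
Cpt1a: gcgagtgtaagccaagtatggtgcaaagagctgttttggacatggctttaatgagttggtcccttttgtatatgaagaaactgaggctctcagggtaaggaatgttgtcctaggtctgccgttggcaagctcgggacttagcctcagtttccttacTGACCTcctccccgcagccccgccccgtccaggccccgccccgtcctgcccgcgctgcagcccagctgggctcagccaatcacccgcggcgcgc
The first base of the element lies 249 bases before the start site in Acadm, 87 in Acadvl and 94 in Cpt1a. The 6 other genes that rose and have a window (Acsl1, Acadl, Hadh, Hadhb, Etfa and Etfb) do not hold these letters there. Of the 5 genes that hold them, Acadm, Acadvl and Cpt1a rose with nivolumab in the dorsal horn, and Cpt1c (-0.09 ± 0.08) and Echs1 (-0.02 ± 0.09) were not called.

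Cancer against sham in the dorsal horn gave no call among the 33 genes with edgeR, where 0.0955% of all genes were higher and 0.228% were lower. An unadjusted p under 0.05 was reached by 12 of the 33, and DESeq2 called 2, Hadh and Bdh1, both lower. The median log2 change was -0.10 over the 33 genes and 0.01 over all genes, with 23 of the 33 negative. The smallest p belonged to Hadh, whose libraries are given above: 48.1 ± 1.98 CPM in sham and 38.0 ± 0.763 in cancer, with no overlap (log2 change -0.34 ± 0.08, unadjusted p = 0.0024, adjusted p = 0.14). Bdh1 had 70.6, 73.3 and 69.1 CPM in sham, 62.6, 53.6 and 48.7 in cancer and 60.0, 66 and 54.4 with nivolumab. Its cancer libraries lay below the sham libraries (-0.37 ± 0.10, adjusted p = 0.17), and nivolumab overlapped cancer. By mean log2 CPM, oligodendrocyte and astrocyte markers were lower in cancer than in sham without overlap, and neuronal markers were higher, as given above. By summed CPM, astrocyte markers overlapped (7533 to 9219 in sham, 6753 to 8313 in cancer). Neuronal markers overlapped too (6112 to 6486 in sham, 6377 to 6683 in cancer). Oligodendrocyte and Schwann cell sums were lower in cancer without overlap. The 5 red blood cell markers in the table were lower too, at a mean log2 CPM of 5.67 to 6.72 in sham and 2.99 to 4.15 in cancer. The part of these lists in the values was not tested.

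Nivolumab against sham in the dorsal horn gave 3 higher and 1 lower of the 33 genes, where 4.67% of all genes were higher and 3.84% were lower. Acadm (0.37 ± 0.08, adjusted p = 0.024) and Etfa (0.38 ± 0.08, adjusted p = 0.020) were higher and Ppargc1a was lower (-0.28 ± 0.07, adjusted p = 0.034), from the values given above. The other gene that was higher was Cpt1b (chr15:89416405-89425863), with 1.44, 2.96 and 0.796 CPM in sham, 4.64, 6.62 and 2.87 in cancer and 5.06, 9.36 and 5.85 with nivolumab. All nivolumab libraries were above all sham libraries, while cancer overlapped both. Its log2 change was 1.97 ± 0.49 (ratio 3.90, adjusted p = 0.041). In the exons of Cpt1b, 81.4% of the bases are shared with Gm44502 on the same strand.

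These 4 calls passed in 7 (Ppargc1a) to 12 (Etfa) of 18 alternatives. Without nivolumab replicate 1 or 3 none of the 33 genes was called, and without nivolumab replicate 2 the call was Etfa alone. Without sham replicate 1 it was Acadm alone, without sham replicate 3 Etfa alone, and without sham replicate 2 Cpt1b, higher, and Acox3, lower. With the skeletal muscle score as a covariate 0 were called. With the ganglion score 7 were, 4 higher and 3 lower, among them the peroxisomal Acaa1a and Acox3. The nivolumab libraries stood apart in that score, so ganglion content and nivolumab cannot be told apart by that fit. The shares of all genes called in both covariate fits are not given here. Cpt1b is itself a muscle gene, and its highest dorsal horn library, nivolumab replicate 2, was also the highest in skeletal muscle markers, at a mean log2 CPM of 6.51. Sham replicate 3 had the lowest Cpt1b with muscle markers at 4.38, and cancer replicate 3 had the lowest muscle markers, at 0.24, with 2.87 CPM of Cpt1b.

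**Figure D4:**
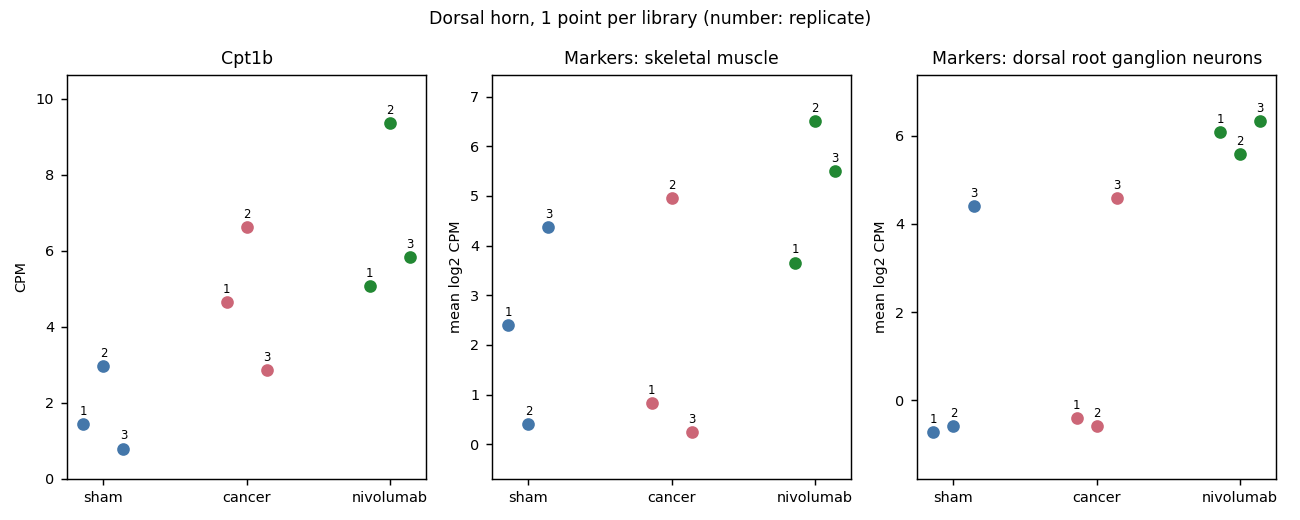
Dorsal horn libraries by group, with the replicate number beside each point: CPM of Cpt1b (left), and mean log2 CPM of the skeletal muscle (middle) and dorsal root ganglion (right) marker lists. Nivolumab replicate 2 is the highest for Cpt1b, at 9.36 CPM, and for the muscle markers, at 6.51, and the ganglion markers are at 5.58 or more in all 3 nivolumab libraries.

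Mitochondrial and peroxisomal steps are set side by side here but were not tested against each other. From cancer to nivolumab in the dorsal horn, 9 of 22 mitochondrial genes were higher and 0 lower, with a median log2 change of 0.25. Over all genes 8.63% were higher and 8.6% were lower, and 4 peroxisomal genes are too few to set a count against these shares. The 4 peroxisomal genes had a median of 0.16 and a range from -0.22 to 0.25. Which genes were called depended on the model. With the ganglion covariate the mitochondrial Acaa2, Acadl, Cpt1a, Etfa and Etfb were not called, and the peroxisomal Acaa1a, Acox3 and Hsd17b4 were. With the skeletal muscle covariate the only mitochondrial calls were Acadm and Acadvl. The summed RPKM of the 22 mitochondrial genes was 508, 472 and 473 in sham, 426, 434 and 456 in cancer and 512, 524 and 538 with nivolumab. These sums did not overlap between groups, with cancer lowest and nivolumab highest. The peroxisomal sum was 113, 118 and 96.4 RPKM in sham, 104, 105 and 91.3 in cancer and 109, 106 and 105 with nivolumab, where the nivolumab libraries lay within the sham range and cancer overlapped sham.

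As a ratio within each library, the mean log2 CPM of the mitochondrial genes minus that of the peroxisomal genes was -0.44, -0.49 and -0.58 in dorsal horn sham, -0.50, -0.42 and -0.33 in cancer and -0.30, -0.23 and -0.23 with nivolumab. Nivolumab lay above the rest, and sham and cancer overlapped. In colon the same difference was 0.29, 0.44 and 0.54 in sham, 0.70, 0.66 and 0.64 in cancer and 0.72, 0.57 and 0.63 with nivolumab. There sham was lowest, and the other groups overlapped. This difference is not scaled by length, so its change between libraries can be read but not its sign, and it has no test, since the genes were chosen as a list.

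**Figure D5:**
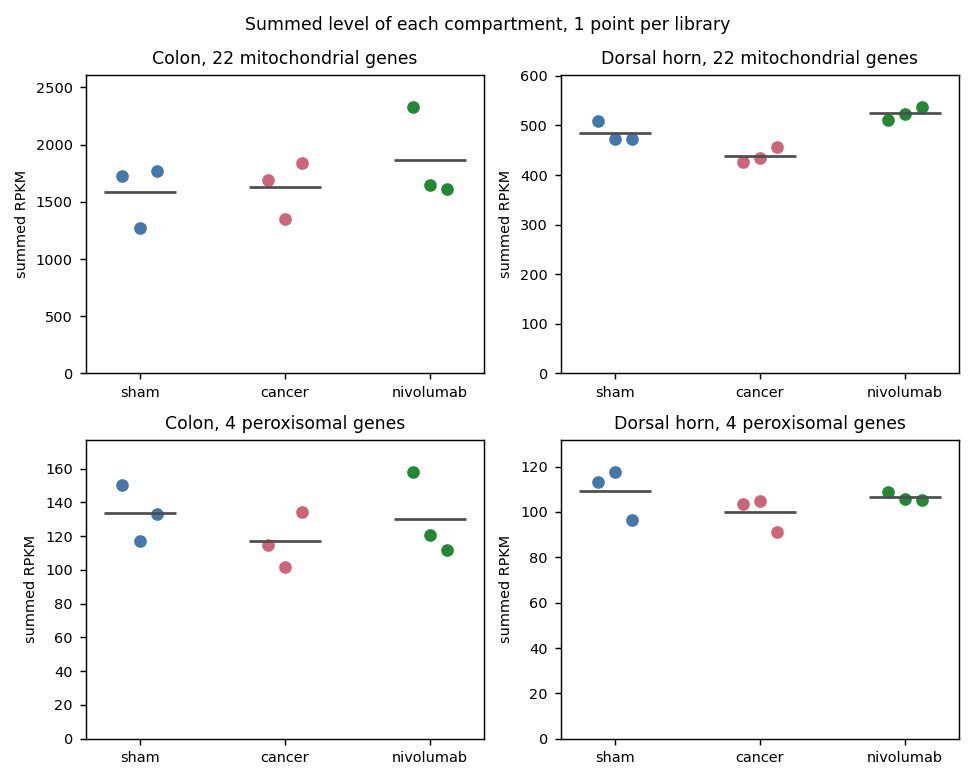
Summed RPKM of the 22 mitochondrial genes (top) and 4 peroxisomal genes (bottom) in each library of colon (left) and dorsal horn (right), with a line at each group mean; axes start at 0. The dorsal horn mitochondrial sum runs from 426 to 456 in cancer and from 512 to 538 with nivolumab, while the first nivolumab library of the colon stands apart at 2333.

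Genes of ketone use and of acetoacetyl-CoA outside the list also changed in the dorsal horn. Aacs, which activates acetoacetate in the cytosol for lipid synthesis, had 57.5, 60.4 and 54.4 CPM in sham, 52.6, 48.8 and 46.4 in cancer and 112, 108 and 92.7 with nivolumab (log2 change from cancer 1.08 ± 0.09 SE, ratio 2.12, adjusted p = 0.00076). Acat2, the cytosolic acetoacetyl-CoA thiolase, had 83.8, 84.3 and 87.1 CPM, then 77.3, 72.2 and 82.3, then 113, 111 and 102 (0.49 ± 0.07, adjusted p = 0.0028). For both, no nivolumab library overlapped another group, and each call from cancer passed in all 18 alternatives. Oxct1, the main enzyme of ketone use, had a change of 0.22 ± 0.07 (adjusted p = 0.064). By mean log2 CPM, ganglion and Schwann cell markers were highest in the same nivolumab libraries, as given above. By summed CPM, the largest Schwann cell value was in sham.

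Of 16 other genes of peroxisomal oxidation, 2 rose and 2 fell from cancer to nivolumab, close to the shares over all genes (8.63% higher and 8.6% lower). Cat, catalase, went from 107 ± 3.82 to 163 ± 3.85 CPM (SD, n = 3; log2 change 0.61 ± 0.08 SE, adjusted p = 0.0026), and the fatty acid transporter Abcd3 changed by 0.29 ± 0.08 (adjusted p = 0.036). The very-long-chain synthetase Slc27a2 fell (-0.40 ± 0.09, adjusted p = 0.019). The fourth was the thioesterase Acot4, which was lower (-0.81 ± 0.23, adjusted p = 0.039). Of 16 peroxisome assembly genes, 1 passed, Pex13 (0.22 ± 0.07, adjusted p = 0.048), and it passed in 1 of 18 alternatives.

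The remaining lists are set beside the same shares over all genes, and none was tested against them. Of 10 uptake and binding genes, 4 rose, among them Dbi, the acyl-CoA binding protein (0.37 ± 0.08), Fabp5 (0.76 ± 0.16) and the transporter Slc27a4 (0.30 ± 0.07). Of 13 synthesis genes, 4 rose and 1 fell: the elongase Elovl1 (0.59 ± 0.11) and Thrsp (0.38 ± 0.08) were higher, and Srebf1, the transcription factor of lipid synthesis, was lower (-0.39 ± 0.10). Of 20 other acyl-CoA enzymes, 3 rose and 1 fell, with Acot7 (0.36 ± 0.07), the cytosolic acetyl-CoA synthetase Acss2 (0.58 ± 0.13) and Acsl4 (0.37 ± 0.10) higher. Of 16 PPAR receptors, partners and target genes, 2 rose and 2 fell: the lipid droplet protein Plin2 (0.52 ± 0.09) and the retinoid receptor Rxrg (0.66 ± 0.17) were higher, and its relative Rxra was lower (-0.50 ± 0.08). Their median log2 changes were 0.30 for uptake, 0.33 for synthesis, 0.02 for other acyl-CoA enzymes and -0.14 for the PPAR list.

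From sham to nivolumab, which shares the nivolumab libraries, these lists gave fewer calls, as did all genes (4.67% higher and 3.84% lower). Aacs (0.86 ± 0.09) and Acat2 (0.35 ± 0.07) were again higher. Cat (0.34 ± 0.08), Plin2 (0.69 ± 0.09), Acsl4 (0.50 ± 0.10) and Fabp7, the brain fatty acid binding protein (2.17 ± 0.52, adjusted p = 0.049), were higher. Rxra (-0.48 ± 0.08), the acetyl-CoA synthetase Acss3 (-1.59 ± 0.38), Slc27a2 (-0.34 ± 0.09) and the mitochondrial carrier Ucp3 (-0.63 ± 0.17) were lower. Of 18 alternatives, Slc27a2 passed in 2, Ucp3 in 7 and Fabp7 in 8. From sham to cancer, edgeR called 0 of 100 genes of these lists, with 20 at an unadjusted p under 0.05, and DESeq2 called 5, all lower.

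In the colon no gene of fatty acid oxidation passed in any contrast. With edgeR, 0 of 33 were called in each, where 0% of 13445 genes were higher and 0% were lower. An unadjusted p under 0.05 was reached by 2 genes in cancer against sham, 1 in nivolumab against cancer and 1 in nivolumab against sham, and DESeq2 called 0 of the 33 in each. The median log2 changes of the 33 genes were -0.08, 0.23 and 0.05 in that order, against 0.00, 0.03 and 0.03 over all genes. The biological coefficient of variation was 0.376 in colon and 0.170 in dorsal horn, so that colon values carry wider errors.

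The gene nearest to a call from sham to cancer was Ppargc1a, with 50.8, 30.4 and 44.6 CPM in sham, 26.2, 22.1 and 17.9 in cancer and 39.4, 28.5 and 20.6 with nivolumab. Cancer lay below sham without overlap (-0.93 ± 0.28, unadjusted p = 0.010, adjusted p = 0.32). From cancer to nivolumab it was Eci1, the enoyl-CoA isomerase, with 46.9, 34.8 and 50.2 CPM in sham, 33.6, 23.4 and 35.6 in cancer and 91.4, 40.9 and 45.3 with nivolumab. Its highest value was that of the first nivolumab library (0.94 ± 0.32, adjusted p = 0.48). From sham to nivolumab it was Acadl, with 184, 158 and 199 CPM in sham, 321, 295 and 200 in cancer and 351, 276 and 302 with nivolumab. All nivolumab libraries were above all sham libraries (0.78 ± 0.20, unadjusted p = 0.0037, adjusted p = 0.49). Acaa1a had 137, 118 and 123 CPM in sham, 97.8, 92.5 and 133 in cancer and 149, 112 and 90.9 with nivolumab, and all groups overlapped.

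Single colon libraries stood at the extremes. Nivolumab replicate 1 was the highest of the 9 for 19 of the 33 genes, such as Acaa2 at 280 CPM against 77.2 to 151 in the others. Cancer replicate 2 was the lowest for 14 and sham replicate 2 for 10. The same counts over all genes are not given here, so these extremes cannot be read as particular to the 33 genes. Smooth muscle markers, all 10 in the table, ranged in mean log2 CPM from 6.88 to 10.7 in sham, 9.11 to 10.8 in cancer and 7.92 to 8.56 with nivolumab. Colonocyte markers, 9 of 12 in the table, ranged from 8.88 to 9.92, 9.05 to 10.1 and 8.95 to 9.55. Goblet cell markers, 7 of 8 in the table, were at 10.3 to 10.4 in sham, 9.20 to 10.5 in cancer and 8.44 to 9.48 with nivolumab. The 8 crypt and cycling markers were at 4.18 to 4.66, 1.25 to 3.89 and 1.80 to 4.56, with the lowest values in cancer replicate 2 (1.25) and nivolumab replicate 1 (1.80). Their part in the spread was not tested. Of the other lists, edgeR called 0 of 105 genes in each colon contrast, with 12, 11 and 8 at an unadjusted p under 0.05 in the order above, and DESeq2 called 3, 2 and 0.

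The responses of the tissues were compared directly by interaction. For cancer against sham, 0 of 33 genes differed between colon and dorsal horn with edgeR, where 0.0847% of all genes were higher and 0.0706% lower. For nivolumab against cancer, 0 of 33 differed, where 0.0282% were higher and 0.0988% lower. An unadjusted p under 0.05 was reached by 2 genes in each, and DESeq2 called Acadl in the first and 0 in the second. Acadl differed by 0.89 ± 0.24 (log2, colon minus dorsal horn) in cancer against sham (adjusted p = 0.18). Ppargc1a differed by -1.10 ± 0.32 in cancer against sham (adjusted p = 0.22) and by 0.85 ± 0.32 in nivolumab against cancer (adjusted p = 0.21). The other gene under 0.05 in nivolumab against cancer was Acadm, which is among the 10 genes that rose in the dorsal horn. Acadm differed by -0.72 ± 0.32 (unadjusted p = 0.040, adjusted p = 0.28), with log2 ratios of -0.28 in colon and 0.44 in dorsal horn. A difference between the tissues in the response of the 10 genes that rose in the dorsal horn was therefore not shown.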

How the data were processed

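The authors deposited whole-number counts per gene, 1 table per tissue, for 18 libraries. FastQC 0.11.5, Trimmomatic, HISAT2, StringTie and GRCm38 are named, without roles, per the submitters' processing notes. The RNA was extracted with TRIzol, per the labels' protocols. Neither the labels nor the files name the counting tool or its strand setting, which leaves overlapping genes and near-identical copies (such as Acaa1a and Acaa1b, or Acot2 and its relatives) uncertain.

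From the counts, CPM and tests were computed in R 4.3.3 with edgeR 4.0.16 (TMM scaling, expression filter by group, robust quasi-likelihood test, two-sided, Benjamini-Hochberg over all genes, threshold 0.05). The 9 libraries of a tissue entered 1 fit, and all 18 entered a joint fit for tissue contrasts and interactions. Log2 CPM used a prior count of 2. RPKM used the principal transcript of each gene in the GENCODE annotation of GRCm38. DESeq2 1.42.0, other scalings, no filter, left-out libraries, a replicate block and marker covariates were alternatives. The test was checked on simulated counts. Labels share replicate numbers without saying why. Same-numbered dorsal horn libraries of cancer and nivolumab deviated together (correlations 0.19, 0.28 and 0.19), so the block is given there where it changes a call. In the other contrasts not every pair was over 0.1 (-0.44 to 0.46 in colon and -0.08 to 0.53 in dorsal horn). No libraries of a group agreed within sampling noise (lowest chi-square per degree of freedom 9.62). Total counts set the counting error, which is not small beside the spread between libraries for every gene and group. In some groups the spread was no wider than counting alone would give. Examples are Cpt1a (SD 0.817 CPM) and Etfb (SD 0.367 CPM) in the dorsal horn nivolumab libraries. The genes and lists were chosen with earlier results of these data known. Full values are given for genes past the threshold (at most 8 per contrast, by adjusted p), for the smallest p where none passed, and for the Cpt1 and Acaa1 families. Up to 3 called genes are named per list, and Acot4, Acox3, Bdh1, Oxct1 and Acaa2 in colon were named after their values were seen. Some genes of the other lists are not reported here.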

Additional observations from a re-analysis of the deposited data

How the results depend on the processing

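Results of single genes were recomputed where the gene was called, or had the smallest p where none was. Of these 919 recomputed values 0 reversed, 726 kept their side of the threshold, 190 lost it and 3 gained it; genes called under an alternative alone are outside this count. From cancer to nivolumab in the dorsal horn, leaving out 1 library gave 4 to 13 called genes, and the skeletal muscle covariate gave 3. From sham to nivolumab, leaving out 1 library gave 0 to 3, the ganglion covariate gave 7 and the muscle covariate gave 0. From sham to cancer, DESeq2 gave 2, the ganglion covariate gave 2 (Bdh1 and Cpt1b) and leaving out 1 library gave 0. The tissue interaction for cancer gave 1 with DESeq2 and 0 to 1 when a library was left out, with Acadl called without colon cancer replicate 3. Counting Acad11 and Crat as peroxisomal changed the mean mitochondrial minus peroxisomal log2 CPM from 0.42 to 0.30 in colon sham, from 0.67 to 0.50 in colon cancer, from 0.64 to 0.52 in colon nivolumab and from -0.25 to -0.29 in dorsal horn nivolumab. The cause of these changes was not tested, except that fits with fewer libraries have fewer degrees of freedom. A replicate block gave 1, 12 and 5 called genes in the dorsal horn (cancer over sham, then nivolumab over cancer, then nivolumab over sham), 0 in each colon contrast, 27 between the sham tissues and 0 in both interactions. The block added Acox3 to the calls from cancer to nivolumab, and Acaa2 to those from sham to nivolumab. Cpt1b, the gene called under the block in cancer against sham, has as few as 21 counts in a library, so its depth limits what can be read.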
